A study of Mus musculus with 9 samples.

Results

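Transcripts of 41 genes of the epidermis and other epithelia were followed in cranial vault and cranial base tissue of mouse embryos at E14.5 (days of gestation), out of 43539 genes in the expression table. The 41 genes were proposed as a module after the difference between the MCAGF8 and the control cranial vault had been seen, in which *Krt5*, *Pkp1* and *Gabrp* stood out, and were taken by name. Their values in that comparison chose them, so they are given as a description, with no p-value for any of the 41 genes. In the text they were grouped by role into 4 basal keratins, 3 suprabasal genes, 3 simple epithelial keratins, 8 desmosome genes, 5 adherens and tight junction genes, 5 hemidesmosome and basement membrane genes, 7 regulators and 6 other epithelial genes.

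RNAseq was performed on 9 libraries, 3 each from the cranial vault of MCAGF8 mutants, the cranial vault of controls and the cartilaginous cranial base of controls. MCAGF8 embryos carried the *Msx2-Cre* transgene, which the study used to target head ectoderm and whose reporter staining it also saw in nasal epithelium but not in bone or cartilage, and the *CAGF8* allele, a conditional *Fgf8b* cDNA under the CAG promoter in the *Gt(ROSA)26Sor* locus that Cre switches on. Controls are labelled wildtype and came from the same cross without Cre. Because the *CAGF8* line was kept homozygous, they would carry the same allele unrecombined, and the strain is given as mixed for all groups. The overlying skin was taken off before the vault was sampled. By the methods of the study, the control embryos that gave vaults also gave cranial bases, so both control groups can hold tissue of the same animals. Which libraries share embryos is not given, and the tests between them treat the libraries as independent. Each library was made from pooled RNA of 3 tissue samples (9 samples per group), so the spread between libraries is a spread between pools. Values are FPKM (fragments scaled to transcript length and to the number mapped in the library), and no read counts were used here, so the depth behind each value is unknown.

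Keratins are the intermediate filament proteins of epithelial cells and form obligate pairs of a type II and a type I chain. Basal keratinocytes of the epidermis make KRT5 with KRT14 (and KRT15), cells that leave the basal layer switch to KRT1 with KRT10, and simple epithelia such as those lining the nasal cavity, pharynx and glands use KRT8 with KRT18 and KRT19. Desmosomes anchor these filaments at cell contacts, hemidesmosomes anchor them to the basement membrane, and the transcription factor TRP63 maintains the stratified lineage. Most of these genes are known mainly from epithelia, although *Jup* and *Itga6* are also used by other cell types.

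Several libraries stood apart. Control base replicate 2 had the lowest correlations with its group (r = 0.904 and 0.927 over all genes tested, on the log2 scale, against 0.946 for the other pair) and held *Oc90*, a protein of the inner ear, at 753 FPKM against 5.25 and 4.15 in the other base libraries. Its summed cartilage markers (*Col2a1*, *Col9a1* and 3 others) came to 5389 FPKM, against 425 and 658 in base replicates 1 and 3, which lay below all 3 control vaults (873 to 1198), so that the cartilage of the label was high in 1 base library only. Muscle markers (*Mylpf*, *Actc1* and 4 others) summed to 1542 to 10474 FPKM in base libraries. In the MCAGF8 group, replicate 3 was the highest of its group for 33 of the 41 genes. Within the control base the same held for replicate 3, also for 33 of 41, while replicate 2 was the lowest for 33. *Fgf8* itself read 19.5, 9.43 and 13.0 FPKM in the MCAGF8 libraries and 13.5, 8.25 and 3.00 in the control vaults, ranges that overlapped.

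**Figure D1:**
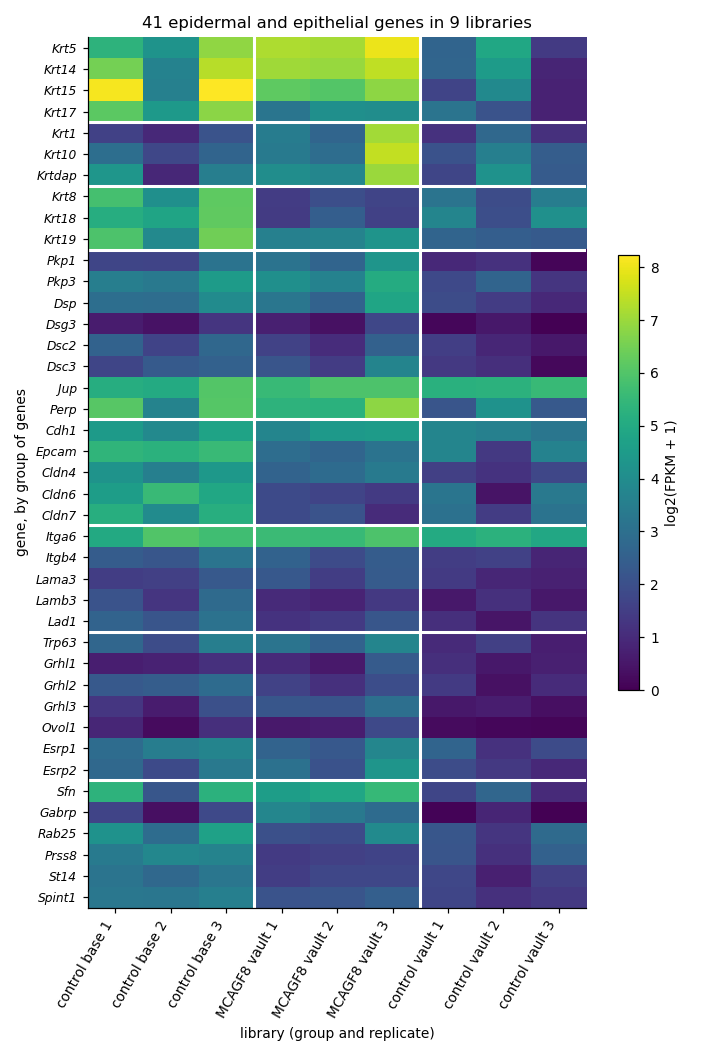
Level of the 41 genes (rows, by role) in the 9 libraries (columns, by group and replicate) as log2(FPKM + 1), from 0 (dark) to the highest value (bright). *Krt5*, *Krt14* and *Krt15* are bright in all MCAGF8 libraries, *Krt1*, *Krt10* and *Krtdap* in MCAGF8 replicate 3 alone, and *Krt8*, *Krt18* and *Epcam* in the control base.

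The keratin genes lie in a type II cluster on chromosome 15 (*Krt5*, *Krt1*, *Krt8*, with the type I gene *Krt18* at its edge) and a type I cluster on chromosome 11 (*Krt14*, *Krt15*, *Krt17*, *Krt10*, *Krt19*). RefSeq promoter windows on GRCm38.p6, 250 bases before to 50 after the annotated start, were found for 20 of the 41 genes. One window per expression pattern described below is shown for comparison: *Krt5* (basal, high in MCAGF8 vaults), *Krt10* (suprabasal, high in 1 library), *Krt18* (simple epithelial, high in the base and low in MCAGF8 vaults) and *Cldn4* (a tight junction gene highest in the base). The *Krt5* window is chr15:101712856-101713155 on the minus strand, that of *Krt10* is chr11:99389315-99389614 on the minus strand, that of *Krt18* is chr15:102027966-102028265 on the plus strand, and that of *Cldn4* is chr5:134946885-134947184 on the minus strand. All are written 5′ to 3′ along the gene, in lower case, with the letters of any of 5 searched motifs in capitals.
Krt5: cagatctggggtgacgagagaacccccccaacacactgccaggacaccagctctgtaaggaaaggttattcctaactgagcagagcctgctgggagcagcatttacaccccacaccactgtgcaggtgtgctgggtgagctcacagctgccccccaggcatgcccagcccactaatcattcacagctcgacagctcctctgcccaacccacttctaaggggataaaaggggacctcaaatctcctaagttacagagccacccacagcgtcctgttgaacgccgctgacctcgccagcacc
Krt10: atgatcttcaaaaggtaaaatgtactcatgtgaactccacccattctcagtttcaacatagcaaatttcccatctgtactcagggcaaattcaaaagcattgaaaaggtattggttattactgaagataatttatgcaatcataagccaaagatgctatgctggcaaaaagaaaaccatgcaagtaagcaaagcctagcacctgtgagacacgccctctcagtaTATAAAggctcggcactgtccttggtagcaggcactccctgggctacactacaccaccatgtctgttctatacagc
Krt18: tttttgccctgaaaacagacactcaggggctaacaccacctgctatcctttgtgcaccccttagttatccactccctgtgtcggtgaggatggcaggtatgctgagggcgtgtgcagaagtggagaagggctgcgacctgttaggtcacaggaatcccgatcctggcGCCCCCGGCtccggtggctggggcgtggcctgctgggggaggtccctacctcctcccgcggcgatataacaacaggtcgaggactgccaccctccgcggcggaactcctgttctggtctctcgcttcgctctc
Cldn4: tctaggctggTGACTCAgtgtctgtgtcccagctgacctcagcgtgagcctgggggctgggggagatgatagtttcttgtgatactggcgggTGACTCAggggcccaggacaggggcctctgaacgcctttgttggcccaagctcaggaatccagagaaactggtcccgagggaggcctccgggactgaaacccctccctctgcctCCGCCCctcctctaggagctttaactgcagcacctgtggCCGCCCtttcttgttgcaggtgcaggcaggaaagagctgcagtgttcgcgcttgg
The 5 motifs, searched on both strands, were TATAAA for the general transcription machinery, GCCNNNGGC for AP-2 factors, TGANTCA for AP-1, GGGCGG for SP and KLF factors and AACCNGTT for Grainyhead-like factors. None of them overlapped another in the windows shown. *Krt5* held none of these letters, *Krt10* held TATAAA 26 bases before its start (-26), *Krt18* held GCCNNNGGC at -83, and *Cldn4* held TGANTCA at -240 and -158 and GGGCGG at -44 and -5. Over the 32851 promoter windows of the table, 13.6% held TATAAA, 16.6% GCCNNNGGC, 7.81% TGANTCA, 35.7% GGGCGG and 2.09% AACCNGTT. Among the 23 windows of the 20 genes the numbers of windows were 3, 4, 3, 9 and 2 in the same order, where AACCNGTT lay in *Rab25* and *Sfn*. Such matches are letters in a window and no evidence of binding.

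Transcripts of 3 of the 4 basal keratins (*Krt5*, *Krt14* and *Krt15*) were at 64.4 FPKM or more in every MCAGF8 vault library and low but uneven in the control vaults, while *Krt17* reached at most 16.0 in the MCAGF8 vaults. *Krt5* (ENSMUSG00000061527, chr15:101707070-101712898, minus strand), the type II keratin of basal cells, measured 149, 139 and 252 FPKM in the 3 MCAGF8 libraries (mean 180.1 ± 62.5, SD, n = 3) and 5.27, 29.2 and 1.63 in the control vaults (12.0 ± 15.0). Its partner *Krt14* (chr11:100203162-100207548) measured 132, 123 and 172 FPKM against 5.40, 22.1 and 0.798. The groups did not overlap. In fold terms, though not in SD, the control vaults differed among themselves far more than the mutants did. Control vault replicate 2 was the highest of the 3 for both genes, at 17.9 times replicate 3 for *Krt5*, where the mutants spanned 1.81-fold. The mean of *Krt5* was 15.0 times higher in MCAGF8 than in control vaults, and 52.2 times higher without control vault replicate 2. In bulk tissue, fewer cells of a type and less RNA per cell cannot be told apart. Near-identical stretches among keratin genes (*Krt5* and *Krt6*, *Krt14*, *Krt16* and *Krt17*) also leave it uncertain how reads were shared out between them.

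The control base held basal keratins too, unevenly over its 3 libraries. *Krt5* measured 39.2, 17.8 and 117 FPKM there, and *Krt14* 89.7, 11.5 and 162. Base replicate 2 was the lowest for both. MCAGF8 and base libraries overlapped for *Krt14* and did not for *Krt5*. The log2 difference of *Krt5* (MCAGF8 minus base, on log2(FPKM + 1)) was 1.97 ± 0.86 (SE), with an adjusted p of 0.246 from limma over all genes tested. That of *Krt14* was 1.31 ± 1.01 (adjusted p = 0.521). The MCAGF8 values in these differences also took part in choosing the genes. Neither passed the threshold used throughout, an unadjusted p under 0.05 with a Benjamini-Hochberg adjusted p under 0.1, and below "called" means passing both.

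*Krt15* and *Krt17* were distributed differently from *Krt5*. *Krt15*, a type I keratin of basal cells, measured 274, 10.9 and 299.9 FPKM in the base, 72.2, 64.4 and 112 in MCAGF8 vaults and 2.23, 13.9 and 0.733 in control vaults, so its highest values were those of base replicates 1 and 3. *Krt17*, a type I keratin of periderm, appendages and stressed epithelium, measured 70.3, 20.7 and 111 FPKM in the base, 8.26, 16.0 and 15.6 in MCAGF8 vaults and 7.93, 3.29 and 0.708 in control vaults. For *Krt17* the base lay above all vault libraries and all MCAGF8 libraries lay above the control vaults, replicate 1 only narrowly. *Krt17* was called higher in the base than in the control vault (log2 difference 3.79 ± 0.68, adjusted p = 0.0320), and the call was lost without base replicate 3 or control vault replicate 3 (adjusted p = 0.1 and 0.115). *Krt15* in the same comparison had a larger difference of 4.51 ± 1.18 and was not called (adjusted p = 0.106), its libraries overlapping through base replicate 2. Against the base, MCAGF8 vaults had *Krt17* at 5.08 times lower mean FPKM, with no overlap but no call (log2 difference -2.02 ± 0.68, adjusted p = 0.140).

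**Figure D2:**
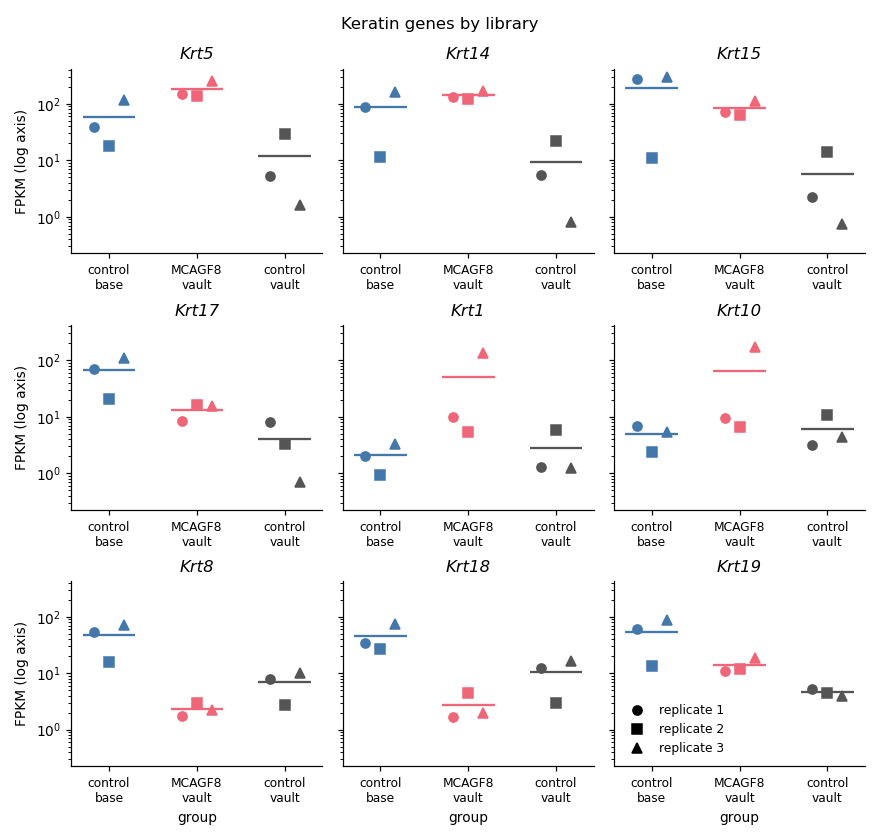
FPKM (log axis) of 9 keratin genes in the control base, MCAGF8 vault and control vault, with a point per library (shape gives the replicate) and a line at the group mean, n = 3. *Krt5* and *Krt14* are at 123 FPKM or more in all MCAGF8 vaults, *Krt1* and *Krt10* reach 136 and 176 in MCAGF8 replicate 3 alone, and *Krt8* and *Krt18* are highest in the base.

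Suprabasal transcripts were high in a single library. *Krt1* (chr15:101845426-101850794) and *Krt10* (chr11:99385254-99389364), the keratin pair of cells that have left the basal layer, measured 136 and 176 FPKM in MCAGF8 replicate 3. *Krt1* was at 9.98 and 5.39 FPKM in the other MCAGF8 libraries, 1.28, 5.87 and 1.21 in control vaults and 2.00, 0.914 and 3.30 in the base. *Krt10* was at 9.56 and 6.68 FPKM in MCAGF8 replicates 1 and 2, 3.22, 10.7 and 4.34 in control vaults and 6.91, 2.40 and 5.31 in the base. Replicate 3 thus exceeded its own group mates 13.6- and 25.2-fold for *Krt1* and 18.4- and 26.3-fold for *Krt10*, while it exceeded them only 1.69- and 1.81-fold for *Krt5*. *Krtdap*, a secreted protein of differentiating keratinocytes, was also highest in that library, with 15.4, 12.7 and 125 FPKM in MCAGF8 vaults, 2.29, 17.3 and 4.14 in control vaults and 19.2, 0.901 and 10.5 in the base. The ratio of MCAGF8 to control vault means moved with single libraries. It was 18.1 for *Krt1*, 10.5 for *Krt10* and 6.47 for *Krtdap*, and 2.76, 1.33 and 1.77 without MCAGF8 replicate 3. Without control vault replicate 2, the highest control for all 3, it was 40.5, 16.9 and 15.9. None of the 3 was called between MCAGF8 vaults and the base, where 1 of them (*Krt1*) had an unadjusted p under 0.05 and the adjusted p were 0.146, 0.285 and 0.341. None was called between base and control vault either, with 0 at an unadjusted p under 0.05.

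Simple epithelial keratins ran the other way. *Krt8* (chr15:101996698-102004482), the type II keratin of simple epithelia, measured 54.8, 16.1 and 71.5 FPKM in the base, 1.75, 2.94 and 2.22 in MCAGF8 vaults and 7.95, 2.77 and 10.2 in control vaults. *Krt18* (chr15:102028180-102032027), its partner, measured 33.9, 27.3 and 74.2 FPKM in the base, 1.70, 4.46 and 1.99 in MCAGF8 vaults and 12.3, 2.93 and 16.6 in control vaults. For both genes every base library lay above every vault library, and control vault replicate 2, the control vault with the most *Krt5*, sat at the MCAGF8 level while the other control vaults lay above it. *Krt8* and *Krt18* were called lower in MCAGF8 vaults than in the base, by 20.6 and 16.6 times in mean FPKM (log2 differences -3.65 ± 0.55 and -3.57 ± 0.57, adjusted p = 0.00906 and 0.0108), and both calls held when any 1 of the 9 libraries was left out. Between the base and the control vault *Krt8* was 6.82 times higher and called (adjusted p = 0.0647), a call that remained in only 2 of the 9 fits with 1 library left out, those without base replicate 2 or MCAGF8 replicate 2, against adjusted p of 0.108 to 0.192 in the other 7. *Krt18* was 4.26 times higher and not called (adjusted p = 0.120).

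*Krt19*, a type I keratin of simple epithelia and periderm, shared the high base values (60.3, 13.6 and 86.2 FPKM) but not the low mutant values. It measured 11.01, 12.0 and 18.3 FPKM in MCAGF8 vaults and 5.23, 4.48 and 3.99 in control vaults. The 3 groups were ordered base, MCAGF8 vault, control vault, with an overlap only between base replicate 2 and MCAGF8 replicate 3. It was called higher in the base than in the control vault (11.7 times in mean FPKM, log2 difference 2.95 ± 0.55, adjusted p = 0.0390), and the call was lost without any 1 of the control vault libraries (adjusted p = 0.110 to 0.148).

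Ratios between keratins within a library cancel any scaling that both genes share, and they were compared next as a description. *Krt15* over *Krt5* was 0.423 to 0.483 in all 6 vault libraries, mutant and control alike, against 7.003, 0.617 and 2.57 in the base. *Krt17* over *Krt5* was 0.0553, 0.115 and 0.0618 in MCAGF8 vaults and 1.79, 1.17 and 0.955 in the base. Control vaults spanned both, at 1.51, 0.113 and 0.433, with replicate 2 at the mutant value. *Krt8* over *Krt5* was 0.0117, 0.0212 and 0.00882 in MCAGF8 vaults and 1.40, 0.905 and 0.613 in the base. In control vaults it was 1.51, 0.0949 and 6.22. Again control vault replicate 2 lay nearest to the mutants and replicates 1 and 3 lay above the base. *Krt5* over *Krt14*, the 2 partners, stayed between 0.437 and 2.05 over all 9 libraries, and *Krt8* over *Krt18* between 0.589 and 1.61.

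*Krt10* over *Krt14* set MCAGF8 replicate 3 apart again, at 1.02 against 0.0724 and 0.0544 in the other MCAGF8 libraries. Control vaults had ratios of 0.595, 0.483 and 5.44, all above MCAGF8 replicates 1 and 2, at *Krt10* levels of 3.22 to 10.7 FPKM. In the base the ratio was 0.0771, 0.208 and 0.0327.

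**Figure D3:**
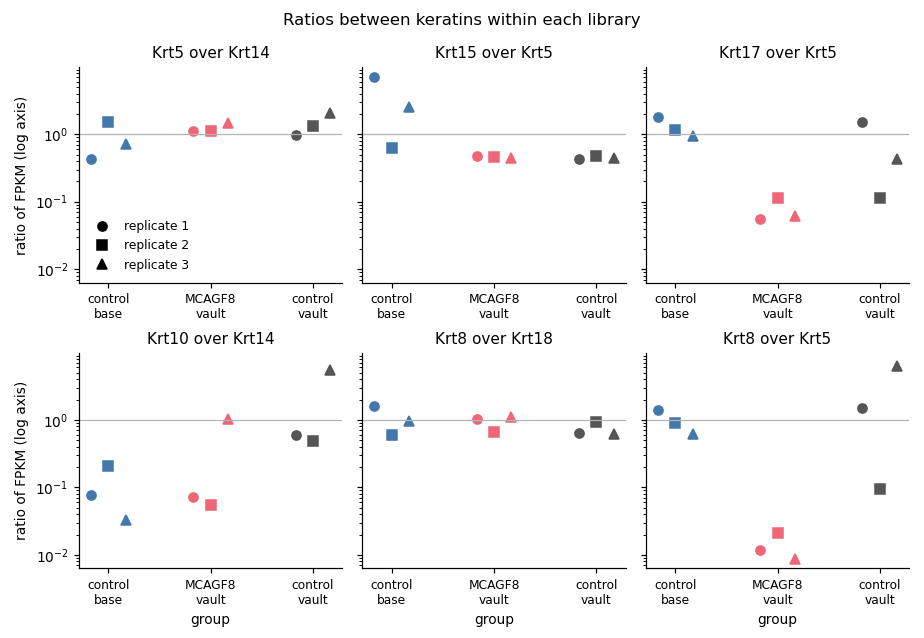
Ratio of FPKM between pairs of keratins within each library (log axis), by group, with shape for the replicate and a grey line at 1. *Krt15* over *Krt5* is between 0.423 and 0.483 in all vaults, *Krt8* over *Krt5* is at most 0.0212 in MCAGF8 vaults and at least 0.613 in the base, and *Krt10* over *Krt14* is 1.02 in MCAGF8 replicate 3.

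All 8 desmosome genes had a higher mean in MCAGF8 vaults and in the base than in control vaults. The libraries did not overlap for 5 of 8 in each case, beside 9.9% and 8.86% of all genes tested. The first of these comparisons chose the genes, so nothing is read from its count. The base was called higher than the control vault for 1 of 8, beside 1.85% of all genes. *Pkp1*, a plakophilin of stratified epithelium that links cadherins to keratin, measured 7.88, 5.34 and 18.6 FPKM in MCAGF8 vaults, 0.940, 1.26 and 0.0856 in control vaults and 2.29, 2.26 and 7.81 in the base. *Pkp3*, a plakophilin of most epithelia, measured 16.1, 11.7 and 32.2 FPKM in MCAGF8 vaults, 2.498, 5.35 and 1.39 in control vaults and 10.4, 9.00 and 21.7 in the base. *Perp*, a tetraspan protein of desmosomes and a target of TRP63, measured 39.4, 37.2 and 113 FPKM in MCAGF8 vaults, 3.54, 17.3 and 3.88 in control vaults and 67.6, 11.9 and 65.1 in the base. In all 3 genes the MCAGF8 libraries lay above all control vaults, by 13.9, 6.50 and 7.69 times in mean FPKM, and MCAGF8 replicate 3 was the highest library of all 9. Without it the ratio for *Pkp1* was 8.67 and for *Perp* 4.65, and without control vault replicate 2 the ratio was 10.3 for *Pkp3* and 17.05 for *Perp*.

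*Jup* (plakoglobin, shared by desmosomes and adherens junctions and present outside epithelia) was nearly level, at 33.7, 31.8 and 65.0 FPKM in the base, 45.6, 60.5 and 60.2 in MCAGF8 vaults and 36.0, 38.1 and 45.6 in control vaults. The remaining members ranged from 5.04 to 27.8 FPKM for *Dsp* (desmoplakin, the link to keratin filaments) in MCAGF8 vaults against 0.915 to 2.77 in control vaults, from 1.76 to 12.3 against 0.131 to 1.59 for the desmosomal cadherin *Dsc3*, from 1.05 to 4.84 against 0.456 to 1.88 for *Dsc2* and from 0.303 to 2.36 against 0 to 0.457 for *Dsg3*, the low end being a value listed at 0. MCAGF8 replicate 3 was the highest of its group in 7 of the 8 genes, and base replicate 3 likewise in 7 of 8. Between base and control vault 1 of 8 was called (*Pkp3*, log2 difference 1.87 ± 0.47, adjusted p = 0.0994, kept only in the fit without base replicate 2 among the 9 with 1 library left out). Between MCAGF8 vaults and base none was called and 1 of 8, *Pkp1*, had an unadjusted p under 0.05 (log2 difference 1.18 ± 0.52, 95% interval 0.02 to 2.35, adjusted p = 0.249). *Pkp1* was among the genes whose MCAGF8 values led to the choice, so this is a description.

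In 4 of the 5 adherens and tight junction genes every base library lay above every vault library, the exception being *Cdh1*. These 4 were called in both comparisons with the base, though not all calls held with 1 library left out. Of all genes tested, 8.86% lay higher in the base than in control vaults without overlap, and 1.85% were called higher. In MCAGF8 vaults 13.0% lay below the base without overlap, and 5.41% were called lower. *Epcam*, an adhesion protein of simple and embryonic epithelia, measured 41.3, 37.1 and 46.6 FPKM in the base, 6.70, 5.45 and 7.79 in MCAGF8 vaults and 12.5, 1.60 and 11.6 in control vaults. The claudin *Cldn6* measured 22.8, 46.6 and 29.3 FPKM in the base, 2.58, 2.20 and 1.65 in MCAGF8 vaults and 8.19, 0.353 and 8.97 in control vaults. *Cldn7*, another claudin of tight junctions, measured 34.8, 14.6 and 34.7 FPKM in the base, 2.58, 3.33 and 1.01 in MCAGF8 vaults and 7.45, 1.77 and 7.77 in control vaults. As for *Krt8* and *Krt18*, the base did not overlap either vault group, and control vault replicate 2 fell to or below the mutant range while replicates 1 and 3 lay above it. MCAGF8 vaults were called lower than the base for *Epcam* (6.27 times in mean FPKM, adjusted p = 0.0306), *Cldn6* (15.3 times, adjusted p = 0.0210) and *Cldn7* (12.2 times, adjusted p = 0.0113). The *Cldn6* and *Cldn7* calls held without any 1 library, and that of *Epcam* was lost without MCAGF8 replicate 1 or 2 (adjusted p = 0.108 and 0.109).

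Unlike those, *Cldn4* (chr5:134945119-134946934), a claudin of barrier epithelia, was at its lowest in all control vaults. It measured 17.8, 10.7 and 20.0 FPKM in the base, 5.18, 6.28 and 9.23 in MCAGF8 vaults and 1.93, 1.29 and 2.35 in control vaults, with no overlap between any 2 groups. It was the member with the smallest adjusted p between base and control vault (log2 difference 2.56 ± 0.30, 8.70 times in mean FPKM, adjusted p = 0.00605), called in all 18 alternative settings tried. Its difference between MCAGF8 vaults and base was 2.34 times in the other direction (adjusted p = 0.0703) and was called in only 3 of the 9 fits with 1 library left out, those without base replicate 2, MCAGF8 replicate 3 or control vault replicate 2 (adjusted p = 0.102 to 0.264 in the other 6). *Cdh1* (E-cadherin) differed less, at 21.4, 13.8 and 26.3 FPKM in the base, 12.3, 21.0 and 21.9 in MCAGF8 vaults and 12.5, 11.1 and 8.50 in control vaults. It was not called in either comparison with the base (adjusted p = 0.235 and 0.845). *Epcam*, *Cldn6* and *Cldn7* were called higher in the base than in control vaults too (adjusted p = 0.0604, 0.0912 and 0.0790). These calls held in 5, 1 and 1 of the 9 fits with 1 library left out. Those of *Cldn6* and *Cldn7* remained only without control vault replicate 2 and base replicate 2 respectively, and that of *Epcam* was lost without base replicate 3, MCAGF8 replicate 1 or 3 or control vault replicate 3 (adjusted p = 0.101 to 0.162).

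Differences among the hemidesmosome and basement membrane genes varied in size. *Itga6*, an integrin of hemidesmosomes that other cell types also carry, measured 47.7, 45.3 and 60.05 FPKM in MCAGF8 vaults, 31.4, 37.9 and 29.3 in control vaults and 31.0, 62.3 and 51.5 in the base. Its partner *Itgb4*, restricted mainly to hemidesmosomes, measured 5.0, 2.68 and 4.25 FPKM in MCAGF8 vaults, 1.82, 1.99 and 0.805 in control vaults and 4.26, 3.63 and 7.93 in the base. *Lad1*, an anchoring filament protein, measured 1.305, 1.63 and 3.62 FPKM in MCAGF8 vaults, 1.14, 0.390 and 1.36 in control vaults and 5.13, 3.50 and 7.55 in the base. The MCAGF8 libraries lay above all control vaults for *Itga6* and *Itgb4* and overlapped them for *Lad1*. *Lad1* was called higher in the base than in the control vault (5.59 times in mean FPKM, adjusted p = 0.0547), a call lost without base replicate 3 or any control vault library (adjusted p = 0.143 to 0.184). *Lama3* and *Lamb3*, chains of the laminin of the epidermal basement membrane, ranged from 1.84 to 4.12 and from 0.768 to 1.61 FPKM in MCAGF8 vaults, from 0.685 to 1.65 and 0.430 to 1.19 in control vaults and from 1.83 to 3.87 and 1.40 to 6.20 in the base. None of the 5 was called between MCAGF8 vaults and base, with 2 at an unadjusted p under 0.05.

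Among the regulators, *Trp63* followed the basal keratins. It measured 7.96, 4.98 and 12.4 FPKM in MCAGF8 vaults, 0.985, 1.94 and 0.620 in control vaults and 5.51, 2.76 and 10.5 in the base. Every MCAGF8 library lay above every control vault, as did every base library, by 7.16 and 5.29 times in mean FPKM, and MCAGF8 and base overlapped. Per unit of *Krt5*, *Trp63* was lowest in MCAGF8 vaults (0.0358 to 0.0533, against 0.0897 to 0.156 in the base and 0.0664 to 0.379 in control vaults). The base was not called against the control vault for *Trp63* (log2 difference 1.63 ± 0.44, adjusted p = 0.120).

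The Grainyhead-like factors, which drive epithelial differentiation and barrier formation, did not move together. *Grhl3* measured 3.58, 3.37 and 7.04 FPKM in MCAGF8 vaults, 0.430, 0.587 and 0.277 in control vaults and 1.44, 0.534 and 3.02 in the base, so that the MCAGF8 libraries were the highest 3 of the 9. *Grhl2* measured 2.09, 1.22 and 2.83 FPKM in MCAGF8 vaults, 1.65, 0.304 and 1.00 in control vaults and 3.98, 4.44 and 6.42 in the base, so that the base libraries were the highest 3. *Grhl1* lay between 0.442 and 4.20 FPKM, with MCAGF8 replicate 3 at the top. *Grhl2* was called higher in the base than in the control vault (log2 difference 1.62 ± 0.33, adjusted p = 0.0482), and the call was lost without base replicate 3 or control vault replicate 2 or 3 (adjusted p = 0.127 to 0.164). *Grhl3* was not called between MCAGF8 vault and base, without overlap (log2 difference 1.14 ± 0.37, adjusted p = 0.126).

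*Esrp1* and *Esrp2*, which set epithelial splicing, measured 5.16, 3.85 and 12.8 and 7.45, 3.17 and 18.6 FPKM in MCAGF8 vaults. In control vaults they were at 5.32, 1.24 and 2.69 and at 2.79, 1.59 and 0.934, and in the base at 6.55, 10.2 and 12.1 and at 5.95, 2.60 and 9.12. *Esrp2* did not overlap between the 2 vault groups and *Esrp1* did. *Ovol1*, a zinc finger repressor of differentiating epithelium, was low everywhere, with 0.474 to 2.53 FPKM in MCAGF8 vaults, 0.0708 to 0.173 in control vaults and 0.182 to 1.15 in the base. MCAGF8 replicate 3 was the highest of its group, and base replicate 3 of its own, for all 7 regulators.

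The remaining epithelial genes split between both patterns. *Gabrp*, the pi subunit of the GABA-A receptor, known from several epithelia, measured 12.9, 9.10 and 6.28 FPKM in MCAGF8 vaults, 0.0570, 0.786 and a value listed at 0 in control vaults and 2.23, 0.275 and 2.56 in the base. Unlike most members it was lowest of its group in MCAGF8 replicate 3. It was also the only member called higher in MCAGF8 vaults than in the base (5.58 times in mean FPKM, log2 difference 2.04 ± 0.43, adjusted p = 0.0283), and the call was lost without MCAGF8 replicate 1 (adjusted p = 0.125). The MCAGF8 values of *Gabrp* were among those that led to the choice of genes, so this call is a description. *Sfn* (14-3-3 sigma, a product of stratified epithelium) measured 22.7, 28.0 and 44.8 FPKM in MCAGF8 vaults, 2.32, 5.54 and 0.981 in control vaults and 38.8, 3.57 and 38.6 in the base. It did not overlap between the vault groups and had no call against the base (adjusted p = 0.676).

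The membrane serine proteases *Prss8* (prostasin) and *St14* (matriptase) and their inhibitor *Spint1* were highest in the base in every library. *Prss8* measured 9.37, 12.9 and 11.8 FPKM there, 1.61, 1.92 and 2.12 in MCAGF8 vaults and 3.51, 1.19 and 4.83 in control vaults. *St14* measured 8.01, 5.89 and 8.45 FPKM in the base, 1.79, 2.37 and 2.39 in MCAGF8 vaults and 2.37, 0.657 and 1.97 in control vaults. *Spint1* measured 8.53, 8.42 and 10.9 FPKM in the base, 3.35, 3.47 and 4.60 in MCAGF8 vaults and 2.32, 1.18 and 1.60 in control vaults. MCAGF8 vaults exceeded all control vaults for *Spint1* and overlapped them for both proteases. The base was called higher than control vaults for *Spint1* (log2 difference 1.94 ± 0.24, adjusted p = 0.00756), *St14* (1.72 ± 0.29, adjusted p = 0.0265) and *Prss8* (1.67 ± 0.34, adjusted p = 0.0526). The first 2 calls held without any 1 library, and that of *Prss8* was lost without base replicate 3 or control vault replicate 1 (adjusted p = 0.127). All 3 were called lower in MCAGF8 vaults than in the base, *Prss8* by 6.04 times (adjusted p = 0.0113, held without any 1 library), *St14* by 3.41 times (adjusted p = 0.0278, lost without MCAGF8 replicate 1, adjusted p = 0.127) and *Spint1* by 2.44 times (adjusted p = 0.0309, lost without MCAGF8 replicate 1 or 2, adjusted p = 0.106 to 0.143). *Rab25*, a GTPase of epithelial recycling endosomes, was 17.2, 6.55 and 25.4 FPKM in the base, 3.04, 2.71 and 14.51 in MCAGF8 vaults and 3.64, 1.41 and 6.20 in control vaults, and was not called in either comparison with the base (adjusted p = 0.245 and 0.302).

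**Figure D4:**
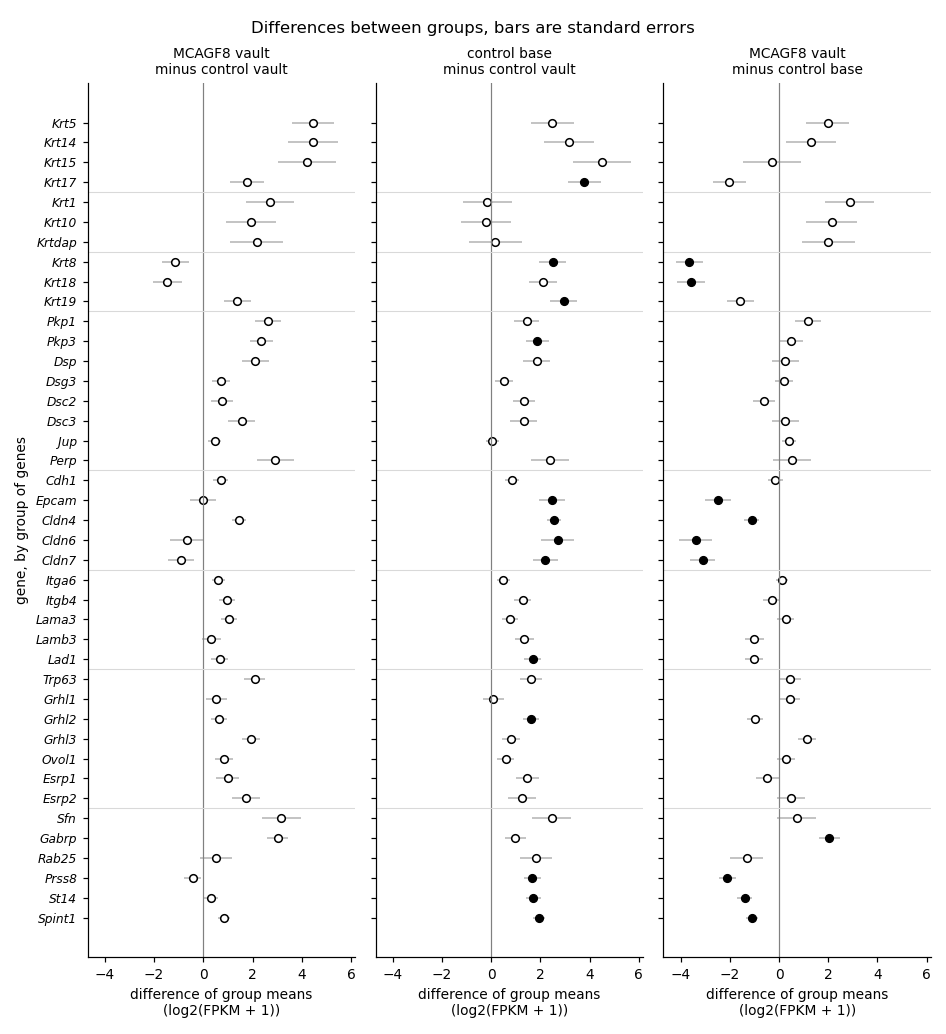
Difference of group means on log2(FPKM + 1) for the 41 genes, with standard errors from limma, in 3 comparisons that share groups. In the middle and right panels filled points passed the unadjusted p of 0.05 and adjusted p of 0.1. The left panel is the comparison the genes were chosen on, and no calls are marked there. *Krt5*, *Krt14* and *Krt15* lie above 4 in the left panel, 39 of 41 genes lie above 0 in the middle panel, and *Krt8*, *Krt18*, *Cldn6* and *Cldn7* lie below -3 in the right panel.

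Counted over all 41 genes, which all passed the filter of a mean of at least 0.5 FPKM, MCAGF8 vaults had the higher mean than control vaults in 35, with a median log2 difference of 0.99 against -0.01 over all 18714 genes tested. In 21 of the 41 all MCAGF8 libraries lay above all control vaults, and in 0 below. Of all genes tested, 9.9% lay above and 9.35% below without overlap. Since this contrast chose the genes, nothing is read from these counts.

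Between the control base and the control vault, 39 of the 41 had the higher mean in the base, with a median log2 difference of 1.63 (0.07 over all genes). All base libraries lay above all control vaults for 26 of 41 and below for 0, where 8.86% and 6.69% of all genes did. The base was called higher for 13 members, 31.7% of them, beside 1.85% of all genes, and lower for 0, with 31 of 41 at an unadjusted p under 0.05. The genes were chosen partly on these same control vault values, which favours genes low there. These counts are therefore a description and no independent support. The called members were *Krt17*, *Krt8*, *Krt19*, *Pkp3*, *Epcam*, *Cldn4*, *Cldn6*, *Cldn7*, *Lad1*, *Grhl2*, *Prss8*, *St14* and *Spint1*, of which *Krt17* is the only basal keratin. Leaving out base replicate 2 raised the count to 25, and leaving out base replicate 3 or control vault replicate 3 lowered it to 4, control vault replicate 1 to 6, and MCAGF8 replicate 1 or control vault replicate 2 to 8. Without both base replicate 2 and MCAGF8 replicate 3 it was 27. Counts over all genes moved too, from 347 called higher to 950 without base replicate 2, 171 without base replicate 3, and 120, 121 and 80 without control vault replicates 1, 2 and 3. *Cldn4*, *Spint1* and *St14* were the 3 calls that held in all 9 fits with 1 library left out.

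Between MCAGF8 vaults and the base the 41 genes fell into opposite directions, with 21 higher and 20 lower in the mutant and a median log2 difference of 0.12 (-0.07 over all genes). That median turned to -0.33 without base replicate 2 and to -0.39 without MCAGF8 replicate 3. One member, *Gabrp*, was called higher, beside 2.98% of all genes, and 9 were called lower, beside 5.41% (*Krt8*, *Krt18*, *Epcam*, *Cldn4*, *Cldn6*, *Cldn7*, *Prss8*, *St14* and *Spint1*). Without overlap, 4 lay higher (*Krt5*, *Krt1*, *Grhl3* and *Gabrp*) and 11 lower, where 8.9% and 13.0% of all genes did. The higher share is near that of all genes. The count of 10 calls was 16 without base replicate 2 and 5 without MCAGF8 replicate 1, where all genes called went from 1571 to 4561 and 587. *Krt8*, *Krt18*, *Cldn6*, *Cldn7* and *Prss8* were the 5 calls that held in all 9 fits with 1 library left out. The 3 comparisons share their groups, so their counts are not independent of each other, and the choice of genes can tilt all 3.

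The spread between libraries was larger for these genes than for genes at large. The median SD of log2(FPKM + 1) among the 3 libraries was 0.60 for members and 0.42 for all genes tested in the base, 0.49 and 0.25 in MCAGF8 vaults and 0.55 and 0.22 in control vaults. It was largest for basal keratins in the base (1.64) and in control vaults (1.69), and for suprabasal genes in MCAGF8 vaults (2.36). Of the 41 genes, 19 had their highest value of all 9 libraries in MCAGF8 replicate 3 and 17 in base replicate 3, while 22 had their lowest in control vault replicate 3 and 11 in control vault replicate 2.

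A further 59 epithelial genes, listed by the same roles and not members, were examined in the same way, and 50 passed the filter. This list too was drawn up with earlier results of these data known. Its counts and p-values, here and below, are therefore no independent support for the pattern of the members. In MCAGF8 against control vaults 19 of the 50 lay above without overlap and 1 below, beside 9.9% and 9.35% of all genes. The median log2 difference was 0.62, and 2 of the 50 were called higher, beside 0.23% of all genes. *Tfap2a*, an AP-2 factor of surface ectoderm and neural crest, measured 7.74, 5.28 and 5.87 FPKM in MCAGF8 vaults and 1.42, 0.528 and 0.973 in control vaults (log2 difference 1.90 ± 0.33, adjusted p = 0.0723). *Fermt1*, the kindlin of epithelial cells, measured 1.89, 1.18 and 1.94 FPKM against 0.199, 0.298 and 0.0101 (1.19 ± 0.23, adjusted p = 0.0925). For both genes the vault groups were well apart. The count was 5 without base replicate 2, 1 without base replicate 1 or 3, and 0 without any 1 MCAGF8 library or control vault replicate 1 or 3, with 11 to 19 at an unadjusted p under 0.05 in those fits. All libraries share one estimate of the spread, so a base library can change it.

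Among 9 other keratins that passed, *Krt7* (simple epithelium) measured 17.5, 4.19 and 20.4 FPKM in the base, 10.02, 11.5 and 9.97 in MCAGF8 vaults and 3.61, 1.41 and 3.25 in control vaults. *Krt77*, a keratin of suprabasal cells and sweat ducts, was at 39.1 FPKM in MCAGF8 replicate 3 and at most 0.371 in the other 8 libraries. *Dmkn* (dermokine, secreted by suprabasal keratinocytes and named after its values were seen) was at 59.0 FPKM in the same library and at most 4.42 elsewhere. Of the late envelope genes, *Lor* (loricrin) was at 6.59 FPKM and *Ivl* (involucrin) at 0.238 in that library. *Flg* (filaggrin) is listed at 0 in all 9 libraries, which may be a failed estimate. *Sbsn* and *Aqp3*, the most abundant genes of the desmosome and cornified envelope list, measured 35.5 and 24.5 FPKM in MCAGF8 replicate 3, 10.3 and 9.75 and 5.46 and 4.42 in MCAGF8 replicates 1 and 2, 4.48 to 10.4 and 1.13 to 12.5 in control vaults and 4.77 to 20.4 and 1.33 to 32.3 in the base. Of the junction list, *Cdh3* (P-cadherin) ran from 17.5 to 31.2 FPKM over all vaults and from 8.25 to 14.4 in the base. *Dst* and *Plec*, cytoskeletal linkers used well beyond epithelia, ran from 11.2 to 44.6 and from 14.2 to 28.6 FPKM over all libraries, and *Klf5*, a regulator of epithelial growth, from 5.19 to 13.1.

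Against the control vault the base was called higher for 6 of the 50, beside 1.85% of all genes, and lower for 0, with 27 at an unadjusted p under 0.05 and a median log2 difference of 0.84. Of these, *Lama5* (a laminin chain, 5.28 times in mean FPKM, adjusted p = 0.0233) had the smallest adjusted p. The count was 20 without base replicate 2, and 2, 3, 1 and 0 without base replicate 3 and control vault replicates 1, 2 and 3 (18 at an unadjusted p under 0.05 in the last). MCAGF8 vaults against the base had 2 called higher (*Tfap2a* and *Cdh3*), beside 2.98% of all genes, and 9 lower, beside 5.41%, among them *Cldn3* (12.3 times lower, adjusted p = 0.0349) and *Marveld3* (5.71 times lower, adjusted p = 0.0256), both of tight junctions. With 1 library left out this count of 11 was 19 without base replicate 2 and 0 to 7 otherwise, lowest without MCAGF8 replicate 1 (17 at an unadjusted p under 0.05). The genes named here beyond those among the 2 most abundant of each list and the 2 called between vaults were picked after their values were seen.

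**Figure D5:**
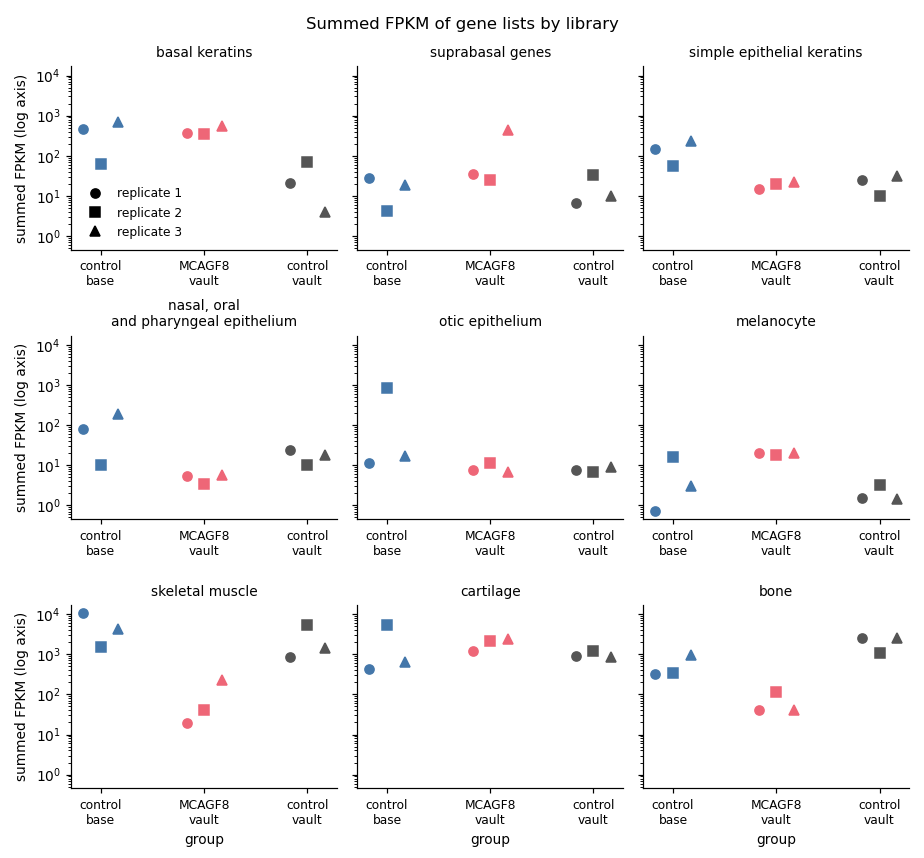
Summed FPKM (log axis) of 3 member groups (top) and of marker lists of other cell types, by group, with shape for the replicate. Nasal, oral and pharyngeal markers reach 80.0 and 191 FPKM in base replicates 1 and 3, otic markers 836 in base replicate 2, and melanocyte markers are 17.9 or more in all MCAGF8 vaults.

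Markers of other epithelia and cell types moved with some of these groups. Summed markers of nasal, oral and pharyngeal epithelium (9 genes, led by *Foxj1* and *Bpifa1*) were 80.0, 10.02 and 191 FPKM in the base, 5.34, 3.48 and 5.59 in MCAGF8 vaults and 24.3, 10.2 and 18.1 in control vaults. Among the vaults they were highest in control replicates 1 and 3, the same libraries in which *Krt8*, *Krt18*, *Epcam*, *Cldn6* and *Cldn7* were highest. *Bpifa1* was listed at 0 in all MCAGF8 vaults and at 3.20, 0.319 and 1.17 FPKM in control vaults, with 7.89, 0.148 and 69.9 in the base. Otic markers (5 genes, *Oc90* and *Fbxo2* foremost) summed to 836 FPKM in base replicate 2 and to 6.69 to 17.5 elsewhere. Melanocyte markers (5 genes, *Dct* and *Pmel* foremost) summed to 20.1, 17.9 and 20.5 FPKM in MCAGF8 vaults against 1.54, 3.14 and 1.43 in control vaults and 0.738, 15.8 and 2.98 in the base, and *Mlana* was listed at 0 in all control vaults. Melanocyte markers were thus high in the same libraries as *Krt5* among the vaults, and the 2 control vaults that lay lowest in *Krt5* were also lowest in melanocyte markers. The base went the other way, its replicate 2 being the highest of the group in melanocyte markers and the lowest in *Krt5*. Muscle markers summed to 19.2, 41.9 and 222 FPKM in MCAGF8 vaults and to 834, 5201 and 1449 in control vaults, and bone markers (5 genes, *Ibsp* and *Spp1* foremost) to 41.2, 115 and 41.04 against 2531, 1063 and 2584. Control vault replicate 2, highest of the control vaults in *Krt5* and lowest in *Krt8*, was the highest of them in muscle and the lowest in bone markers.

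Hair placode markers (6 genes, *Sostdc1* and *Lhx2* foremost) summed to 30.3 to 40.7 FPKM in MCAGF8 vaults, 12.2 to 34.2 in control vaults and 21.8 to 83.9 in the base. Meningeal markers (5 genes, *Ptgds* and *Cldn11* foremost) summed to 131 to 576, 290.3 to 399 and 158 to 561 FPKM in the same order, pituitary markers (8 genes, *Pomc* and *Cga* foremost) to 2.17 to 2.25, 2.54 to 3.13 and 3.62 to 9.56, and choroid plexus markers (5 genes, *Clic6* and *Ttr* foremost) to 2.94 to 7.95, 3.88 to 7.10 and 8.35 to 9.80. Of the 2 notochord markers *T* was at most 0.979 FPKM and *Noto* was listed at 0 in all libraries. What part skin left on the vault, epithelium of the nose and mouth, or other tissue in the dissection had in the levels of the 41 genes was not tested.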

How the data were processed

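The authors dissected E14.5 tissue, pooled RNA from 3 tissue samples per library, made stranded mRNA libraries, mapped single-end reads with gSNAP and computed the deposited FPKM values with Cufflinks. Versions, genome build and annotation were not given in the sources used here. Read counts and depth are unknown, so no counting error is given. Groups came from the sample titles. Of 43548 identifiers, 63 appeared on repeated lines, which were summed, 9 with a placeholder of 999999999 in 17 cells were dropped, and 42384 matched a symbol. Genes with a mean of at least 0.5 FPKM over the 9 libraries were kept (18714). A single limma model (version 3.58.1, R 4.3.3) of log2(FPKM + 1) held all 3 groups. Calls needed both a raw p under 0.05 and, after Benjamini-Hochberg adjustment over all genes tested, a value under 0.1. This replaces the analysis of variance of the study. The log2(FPKM + 1) scale understates the change of low genes. The fit was tested on simulated data. The limma p-values set differences of group means against the spread between pools, not between single embryos.

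The 41 members and all lists (5 lists of 59 other epithelial genes, 11 marker lists of 61 genes) were chosen with earlier results of these data known. Values by library were given for keratins, for the 3 members of highest mean FPKM in each other group and for members called in any comparison, and for the 2 highest genes of each other list, some of which are not reported here. Gene coordinates are GENCODE on GRCm38. Alternatives were another pseudocount (0.1), no filter, a minimum mean of 5 FPKM, rescaling to a common sum, quantile normalization, a fit of the 2 groups compared only, a replicate block, an adjusted p of 0.05, each library left out in turn and, chosen after seeing the data, base replicate 2 and MCAGF8 replicate 3 left out together.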

Additional observations from a re-analysis of the deposited data

How the results depend on the processing

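Depth is unknown and each group has 3 pools, which limits the precision. No called member reversed its direction in the comparison of its call under another scaling. Genes without a call were not checked for this. Quantile normalization moved the share of calls higher in the base than in the control vault from 60.6% to 37.7%, and rescaling and quantile normalization moved that of MCAGF8 vault over base from 35.5% to 48.3% and 58.7%, with shifts of the all-gene median of 0.18 and 0.15. The causes of the changes below were not tested.

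Because MCAGF8 against control vaults chose the members, their counts there only describe how many lay past the thresholds and test nothing. They numbered 4, and 7 with a pseudocount of 0.1, 1 with no filter, 1 with a mean of at least 5 FPKM, 1 at an adjusted p under 0.05, and 0 to 12 with 1 library left out. Calls over all genes, in either direction, numbered 113, and 191, 67, 71, 35 and 11 to 273 in the same order. The genes tested numbered 27620 with no filter and 12934 with a mean of at least 5. In base against control vault the members called numbered 13, and 6 with no filter, 7 with a mean of at least 5, 2 with the 2 groups compared only, 6 at an adjusted p under 0.05, and 4 to 25 with 1 library left out (27 without both doubted libraries). Over all genes the calls numbered 573, and 477, 291, 108, 255 and 130 to 1335 in the same order (1019 without both). In MCAGF8 vault against base the members called numbered 10, and 5 to 16 with 1 library or both left out. Over all genes the calls numbered 1571, and 587 to 4561 in those fits. The members' median in that comparison (0.12) ran from -0.39 to 0.43 with 1 library left out, being -0.33 without base replicate 2 and -0.39 without MCAGF8 replicate 3, and was -0.60 without both.

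Other epithelial genes called in MCAGF8 against control vaults numbered 2, and 1 with no filter, 0 with a mean of at least 5 (5 at an unadjusted p under 0.05 in limma), 1 after rescaling, 5 with 2 groups only, 0 at an adjusted p under 0.05 (19 unadjusted), and 0 to 5 with 1 library left out. In base against control vault they numbered 6, and 2 with a mean of at least 5, 2 with 2 groups only, and 0 to 20 with 1 library left out (18 without both). In MCAGF8 vault against base they numbered 11, and 6 with no filter, 3 with a mean of at least 5, 4 with 2 groups only, 3 at an adjusted p under 0.05, and 0 to 19 with 1 library left out (16 without both). Over all genes the calls in these first 4 settings numbered 1468, 834, 875 and 941. In MCAGF8 against control vaults they numbered 107 after rescaling and 174 with 2 groups only. Other settings are given above.

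Libraries with equal replicate numbers did not deviate together more than others (correlations of deviations -0.549 to 0.37 for equal numbers, -0.482 to 0.563 for unequal ones). Deviations from means of 3 libraries cannot show whether libraries share embryos. With a replicate block 0, 10 and 11 members were called in the 3 comparisons in the order above, beside 19, 234 and 918 of all genes. The first of these chose the members, so its count tests nothing. Of the other epithelial genes 0, 3 and 4 were called (19 at an unadjusted p under 0.05 in the first).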
